A study of Mus musculus with 847 samples.

Results

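The cholesterol and fatty acid synthesis genes are 31 listed genes, all of which were present in the table of 21076 genes. They comprise 18 enzymes of the sterol pathway, 6 regulators or sterol transport genes and 7 genes of the fatty acid branch. Their read counts were examined in 847 RNA sequencing libraries from 15 dissected brain regions of 59 C57BL/6JN mice, 25 females and 34 males. Each region and mouse gave at most 1 library, and 37 mice had libraries of all 15 regions. A group of 1 region, age and sex held 2 to 6 libraries. At 3, 12, 15 and 18 months of age there were 5 females and 5 males, and at 21 months 5 females and 6 males. The oldest ages held males alone, with 5 mice at 26 months and 3 at 28 months. No treatment or engineered allele is given for any mouse, so the groups differ in region, age and sex. The corpus callosum, a tract of myelinated axons, stood for white matter, and motor cortex, visual cortex and caudate putamen stood for grey matter.

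Brain cells make nearly all of their own cholesterol, because lipoproteins of the blood do not cross the blood-brain barrier, and most of it lies in myelin. The pathway runs from acetyl-CoA through mevalonate, the isoprenoids and squalene to lanosterol and then cholesterol. The transcription factor Srebf2 mainly drives the sterol genes, and Srebf1 mainly drives the fatty acid genes. Scap carries both factors to the Golgi when sterols are low, and Insig1 and Insig2 hold them back in the endoplasmic reticulum when sterols are high. In the fatty acid branch, Acly makes cytosolic acetyl-CoA, Fasn builds saturated chains, Elovl6 lengthens them, Scd1 and Scd2 add a first double bond, and Fads1 and Fads2 add further ones.

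SREBP factors bind a sterol regulatory element and usually act with NF-Y, which binds CCAAT boxes. RefSeq promoter windows of 300 bases (GRCm38.p6) were at hand for 24 of the 31 members. Those of 4 members are shown 5′ to 3′, for the enzyme that makes HMG-CoA, for 2 further enzymes that fell with age in several regions and for 1 that rose. Capitals mark a match to TCACNCCAC, the sterol regulatory element searched here, or to CCAAT, either of them on either strand (ATTGG for CCAAT).
Hmgcs1 (chr13:119690101-119690400, plus strand): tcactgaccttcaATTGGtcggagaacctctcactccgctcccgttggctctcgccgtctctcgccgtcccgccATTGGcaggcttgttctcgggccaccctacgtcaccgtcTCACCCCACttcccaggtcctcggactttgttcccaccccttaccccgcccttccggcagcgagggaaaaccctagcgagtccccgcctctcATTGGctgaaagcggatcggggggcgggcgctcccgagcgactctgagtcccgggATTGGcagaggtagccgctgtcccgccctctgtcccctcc
Idi1 (chr13:8885356-8885655, plus strand): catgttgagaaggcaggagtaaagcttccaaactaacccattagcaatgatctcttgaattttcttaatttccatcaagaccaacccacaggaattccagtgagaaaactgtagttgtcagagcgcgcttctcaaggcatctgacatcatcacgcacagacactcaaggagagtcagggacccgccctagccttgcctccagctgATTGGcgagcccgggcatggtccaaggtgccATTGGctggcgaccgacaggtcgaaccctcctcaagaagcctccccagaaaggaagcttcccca
Cyp51 (chr5:4104648-4104947, minus strand): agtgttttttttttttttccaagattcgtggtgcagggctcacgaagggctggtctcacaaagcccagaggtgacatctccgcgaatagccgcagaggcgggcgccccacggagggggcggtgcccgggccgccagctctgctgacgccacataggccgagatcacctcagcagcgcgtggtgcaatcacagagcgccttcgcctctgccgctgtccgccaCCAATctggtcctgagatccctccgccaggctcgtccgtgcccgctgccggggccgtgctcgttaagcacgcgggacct
Lss (chr10:76531355-76531654, plus strand): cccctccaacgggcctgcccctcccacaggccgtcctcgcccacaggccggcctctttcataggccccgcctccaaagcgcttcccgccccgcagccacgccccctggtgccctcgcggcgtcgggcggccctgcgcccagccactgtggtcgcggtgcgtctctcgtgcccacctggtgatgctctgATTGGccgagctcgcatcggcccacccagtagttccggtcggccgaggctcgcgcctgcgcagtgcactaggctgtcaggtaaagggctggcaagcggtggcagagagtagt

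The sequence TCACNCCAC was found in 1 of the 24 members, Hmgcs1, at position -137 from the start site, and in 1.44% of all 27025 genes with windows of the same length. CCAAT was found in 20 of the 24 members, including 14 of the 15 sterol enzymes with a window, and in 41.1% of all genes with a window. The sequence GGGCGG, a core site of the factor Sp1, was found in 21 of the 24, again including 14 of 15 sterol enzymes, and in 38.2% of those genes. Each was counted on both strands, and neighbouring matches of CCAAT may overlap. A match describes the letters of the window only. Fdps, Fdft1, Sqle, Stard4, Fads1, Scd1 and Scd2 had no window.

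Totals per library ran from 481444 to 26756735 reads, and 10 libraries held under 1e+06. All 31 members passed the filter on low counts in all 15 regions, and Mvd was the only member with 0 reads in any library, in 1 of them. By their correlation with the regions' profiles, 16 libraries lay nearest to another region. The clearest was the entorhinal cortex library of mouse 52, at r = 0.914 to pons and 0.711 to its own region. Sex genes went against the label in part in 2 libraries, 1 of them among those 16. In medulla, 13 of 58 libraries stood apart from the other 45 on the first principal component, which held 29.5% of the variance of 2000 variable genes that were no members. They came from 10 females and 3 males, numbered between 46 and 59, and included all 3 mice of 28 months. Median depth was alike, at 9875061 reads against 10249352. Medulla slopes and sex differences, and some of the medulla levels, are given with and without these 13 libraries.

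The sterol pathway was read most in medulla and least in cerebellum. Levels are counts per 1e+06 reads (CPM), scaled with TMM factors, and comparisons between genes use CPM per kilobase of exon. Exon length is the union of a gene's annotated exons over all its transcripts. Of the 18 sterol enzymes, 13 had their highest regional median in medulla, 4 in thalamus and 1, Ebp, in cerebellum. The lowest median lay in cerebellum for 11, in subventricular zone for 4 and in caudate putamen for 3. Relative to each gene's own mean over the 15 regions, the median sterol enzyme stood at 0.67 log2 units in medulla, with 18 of 18 above their mean, against -0.02 for all 14170 genes. Without the 13 medulla libraries that stood apart it was at 0.69, again with 18 of 18 above their mean, and 28 of the 31 members kept their highest region. Insig2 and Stard4 then moved to medulla and Scd1 to olfactory bulb. With all libraries the median sterol enzyme stood at 0.44 in thalamus, 0.35 in pons, -0.03 in corpus callosum, -0.45 in subventricular zone, -0.46 in caudate putamen and -0.59 in cerebellum. In bulk tissue, fewer cells of a type and less RNA per cell cannot be told apart.

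**Figure D1:**
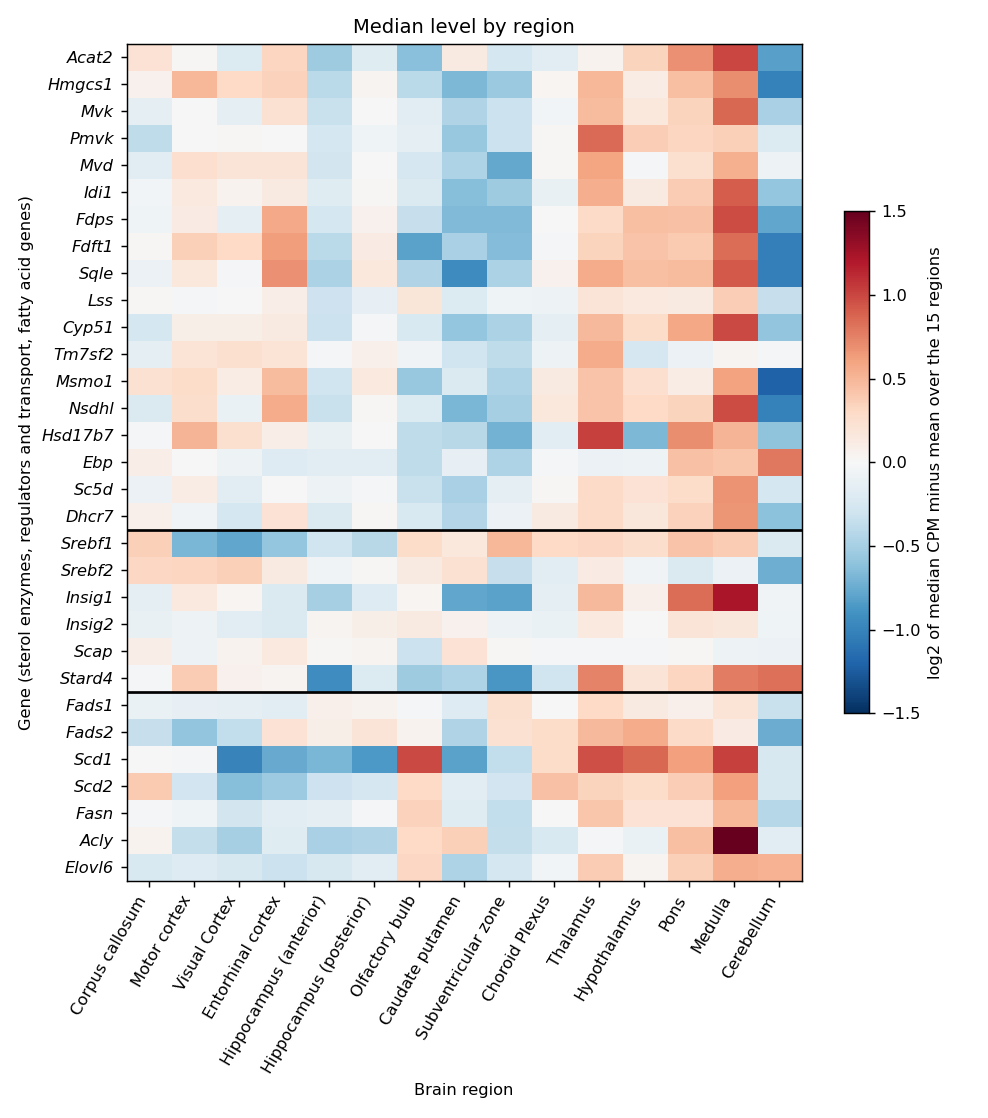
Heat map of the 31 members (vertical axis) in 15 regions (horizontal axis), as log2 of the median CPM in a region minus the gene's mean over the regions, with colours limited to 1.5 log2 units either way. Medulla is above the mean for all 18 sterol enzymes and all 7 fatty acid genes, and Acly in medulla lies beyond the colour scale.

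Hmgcs1, which condenses acetyl-CoA units to HMG-CoA, had the highest sterol enzyme level per kilobase, with a median of 67.7 CPM per kilobase over all libraries. Its regional medians ran from 475 CPM in medulla through 413 in thalamus and 412 in motor cortex to 184 in caudate putamen and 145 in cerebellum. Lss, the cyclase that makes lanosterol, had 3.27 CPM per kilobase over 10787 exonic bases, the longest exon length among the sterol enzymes. Its median over all libraries was 35.3 CPM, above Pmvk at 30.8 and Nsdhl at 26.5, so a low rank per kilobase depends on that length. The regional medians of Lss ran from 45.5 CPM in medulla to 27.7 in cerebellum. Nsdhl, a demethylation enzyme, spanned the widest ratio among the sterol enzymes, from 51.7 CPM in medulla, or 53.8 without the libraries that stood apart, to 13.0 in cerebellum. Ebp, a sterol isomerase, differed in the place of cerebellum, where it had its highest median at 43.5 CPM. Pons at 33.9 and medulla at 33.3 came next, and subventricular zone was lowest at 18.1.

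Regulators did not share one regional order. Srebf1 was highest in subventricular zone at a median of 75.3 CPM and lowest in visual cortex at 31.1, whereas Srebf2 was highest in visual cortex at 160 CPM and lowest in cerebellum at 75.05. Insig1 ran from 151 CPM in medulla to 37.0 in subventricular zone. Insig2 hardly varied, from 101 CPM in pons to 75.6 in entorhinal cortex. Stard4, which moves cholesterol between membranes, was highest in cerebellum at 57.5 CPM, close to medulla at 55.6 and thalamus at 54.5.

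The fatty acid branch was also high in medulla, where 5 of its 7 genes had their highest median and the branch stood 0.52 log2 units above its mean. Without the 13 libraries that stood apart, 4 of the 7 had their highest median there and the branch stood at 0.54. Unlike the sterol enzymes it was low in both isocortical regions, at -0.40 in visual cortex and -0.19 in motor cortex, and high in olfactory bulb at 0.29. Scd2 had the highest level per kilobase of any member, at 74.1 CPM per kilobase, and ran from 624 CPM in medulla and 551 in choroid plexus to 262 in visual cortex. Libraries labelled choroid plexus also carried marker RNA of other cells. Their summed neuron markers had a median of 6388 CPM, against 4822 in caudate putamen, and their oligodendrocyte markers 13474 CPM, against 14362. Their summed choroid plexus markers ran from 567 to 12027 CPM. Values for this region are those of the dissected piece. Acly had a median of 571 CPM in medulla and 246 in pons, the next region. Medulla levels depended on the libraries that stood apart. Scd2 ran from 777 through a median of 1744 to 2163 CPM in those 13 and from 449 through 601 to 740 in the other 45, with no overlap. Acly ran from 559 through 694 to 922 CPM in the 13 and from 231 through 546 to 785 in the 45, which overlap, so both sets held medians above every other region. Insig2 was lower in the 13, from 68.0 through 75.1 to 90.7 CPM, than in the 45, from 83.8 through 101 to 122.

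Most sterol enzymes were lower in corpus callosum than in motor cortex, and several fatty acid genes were higher. With the edgeR quasi-likelihood test and adjustment by Benjamini-Hochberg over all genes, 10 of the 31 members were higher and 15 lower in corpus callosum, where 88.1% of all 13600 genes differed. Among the 18 sterol enzymes 4 were higher and 13 lower, with a median of -0.20 log2 units against 0.02 for all genes. Among the 7 fatty acid genes 4 were higher and none lower, with a median of 0.05, and 3 more, Scd1, Fasn and Elovl6, did not pass. The regulators split evenly, with Srebf1 and Scap higher and Insig1 and Stard4 lower.

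Srebf1 had the largest difference of any member. It ran from 45.6 through a median of 68.0 to 95.3 CPM in 57 corpus callosum libraries and from 23.4 through 33.2 to 43.9 CPM in 59 motor cortex libraries, with no overlap. The difference was 1.04 log2 units (SE 0.035, adjusted p = 3.32e-53). Scd2, the main stearoyl-CoA desaturase of brain, ran from 352 through 536 to 759 CPM against 280 through 333 to 408, which overlap a little, and differed by 0.72 (SE 0.025). Smaller differences in the same direction were seen for Acly at 0.39 (SE 0.021), Fads2 at 0.29 (SE 0.024) and Acat2 at 0.19 (SE 0.025). Acat2, the thiolase that begins the pathway, shares 39.1% of its exonic 50-base stretches with Acat3, so its reads may be split.

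The 13 lower sterol enzymes included Hmgcs1 and Mvd of the mevalonate steps and Hsd17b7 and Nsdhl of the steps after lanosterol. Hsd17b7, a 3-ketosteroid reductase, ran from 17.8 through 25.8 to 36.6 CPM in corpus callosum and from 31.3 through 37.4 to 44.5 in motor cortex, at -0.52 log2 units (SE 0.033). Nsdhl ran from 16.7 through 22.5 to 32.8 CPM against 24.3 through 31.5 to 38.0, at -0.44 (SE 0.034). Both pairs of ranges overlap at their edges. Mvd, which makes isopentenyl diphosphate, differed by -0.43 (SE 0.037), Hmgcs1 by -0.41 (SE 0.036) and Stard4 by -0.40 (SE 0.037). Hmgcs1 ran from 215 through 306 to 464 CPM in corpus callosum and from 352 through 412 to 496 in motor cortex.

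The grey region chosen set the direction of the sterol enzymes. Against caudate putamen, 28 members were higher and 3 lower in corpus callosum, with 75% of all genes called, and all 18 sterol enzymes were higher with a median of 0.44. The largest were Sqle, the squalene epoxidase, at 0.84 (SE 0.047), Scd1 at 0.81 (SE 0.067) and Hmgcs1 at 0.75 (SE 0.039), and the 3 lower were Acly at -0.29, Insig2 at -0.13 and Scap at -0.080. Against visual cortex, 15 members were higher and 9 lower, with 85.7% of all genes called. There the sterol enzymes divided into 6 higher and 7 lower, and 6 of 7 fatty acid genes were higher. Scd1 ran from 70.5 through 99.5 to 139 CPM in corpus callosum and from 32.6 through 49.7 to 68.1 in visual cortex, with no overlap, a difference of 1.01 (SE 0.036) where motor cortex gave 0.042. Srebf1 and Scd2 were higher in corpus callosum in all 3 comparisons, by 1.14 and 1.04 against visual cortex and by 0.25 and 0.57 against caudate putamen. The 3 comparisons share the corpus callosum libraries.

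**Figure D2:**
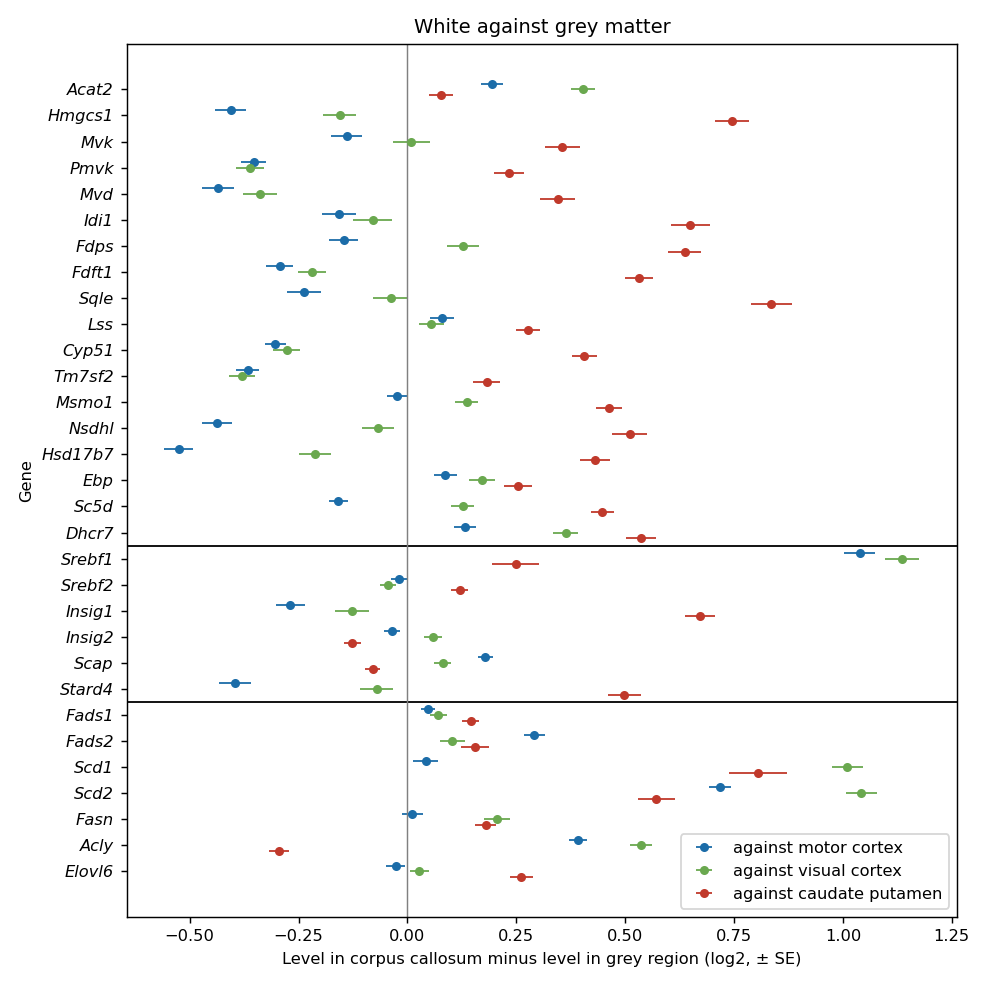
Difference in level for each member, corpus callosum minus motor cortex, visual cortex or caudate putamen, in log2 units on the horizontal axis, with bars of 1 SE and genes on the vertical axis. Srebf1 and Scd2 are on the higher side in all 3, and the sterol enzymes lie to the right of 0 only against caudate putamen as a group.

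Cell type markers differed between these regions too, but not always in the direction of the sterol enzymes. All 10 oligodendrocyte markers were higher in corpus callosum in each of the 3 comparisons, with medians of 2.20 log2 units against motor cortex, 3.16 against visual cortex and 0.69 against caudate putamen. Their summed level ran from 16512 to 31678 CPM in corpus callosum and from 2811 to 8075 CPM in motor cortex. Choroid plexus markers were higher too, and their sum ran from 5.6 to 18224 CPM among corpus callosum libraries. Of 7 neuron markers 6 were lower than in motor cortex. Against caudate putamen, the summed neuron markers had medians of 5048 CPM in corpus callosum and 4822 CPM in caudate putamen. With the mean oligodendrocyte marker level as a covariate, 5 members were higher and 20 lower than in motor cortex. The summed marker ranges of these regions did not overlap, so the covariate nearly follows the region and this fit extrapolates. It cannot separate the region from its marker level, and the changes of direction below carry that limit. Dhcr7 and Ebp then changed from higher to lower, at -0.30 (adjusted p = 0.00716 by edgeR) and -0.33 (adjusted p = 0.00659) log2 units. Acat2 at -0.13 (adjusted p = 0.260) and Lss at -0.23 (adjusted p = 0.0722) no longer passed. The part of these cells in the differences was not tested further.

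Change with age was estimated in each region as the slope of log2 level per month, with sex in the model. Over the 465 pairs of member and region, 49 rose and 35 fell by the edgeR quasi-likelihood test with adjusted p under 0.05. Over all genes and regions 10.6% of pairs were called, 5.87% rising and 4.71% falling. Of 270 sterol enzyme pairs 20 rose and 19 fell, of 90 regulator pairs 21 rose and 3 fell, and of 105 fatty acid pairs 8 rose and 13 fell. Mvk, Mvd, Sc5d, Scap and Fasn passed the threshold in no region.

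**Figure D3:**
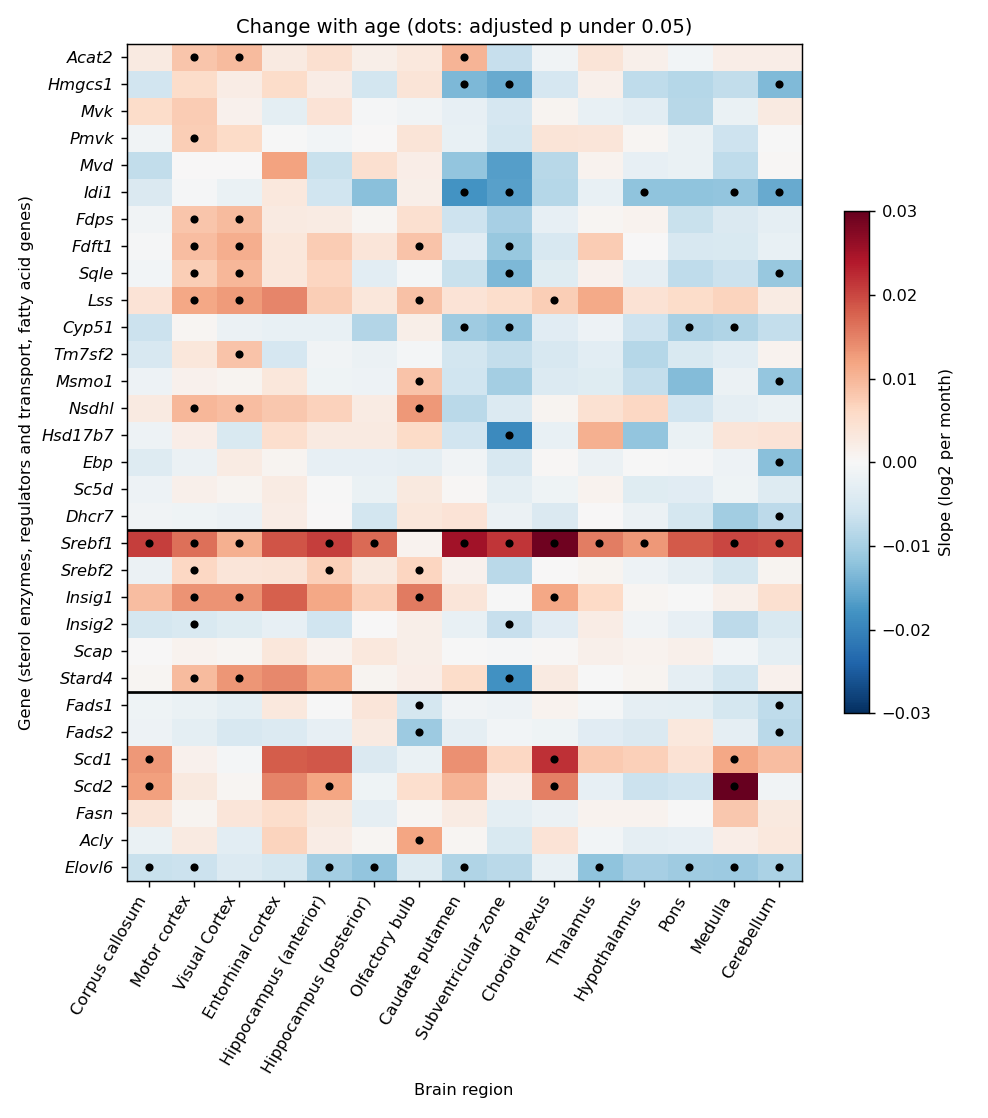
Heat map of the slope of log2 level per month of age for the 31 members (vertical axis) in 15 regions (horizontal axis), with dots where the adjusted p was under 0.05 and colours limited to 0.03 either way. Srebf1 is positive in all 15 regions and Elovl6 negative in all 15, and Scd2 in medulla lies beyond the colour scale.

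Srebf1 (chr11:60199089-60222581, minus strand, GENCODE M21 on GRCm38) rose in 12 of 15 regions and was positive in all 15, with a mean slope of 0.018 log2 units per month. It passed in 11 regions with males alone and in 10 without the mice of 12, 26 and 28 months. The visual cortex rise of Srebf1 did not pass in 11 of 23 alternatives, 8 of them fits that left out 1 mouse. In motor cortex Srebf1 ran from 26.2 through a median of 28.2 to 32.6 CPM in 10 mice of 3 months, and the 3 mice of 28 months had 36.7, 41.9 and 43.9 CPM. In corpus callosum Srebf1 ran from 46.6 through 53.2 to 75.5 CPM at 3 months and was 76.1, 82.1 and 91.0 CPM at 28 months. In choroid plexus it ran from 30.0 through 48.6 to 74.9 CPM and reached 75.7, 82.3 and 87.3. The youngest and oldest mice did not overlap in any of these 3 regions. The Srebf1 slopes were 0.017 (SE 0.0026, adjusted p = 3.48e-06) in motor cortex, 0.021 (SE 0.0042, adjusted p = 0.000219) in corpus callosum and 0.029 (SE 0.0050, adjusted p = 1.63e-05) in choroid plexus. The smallest was 0.0011 in olfactory bulb, where Srebf1 ran from 52.8 to 86.4 CPM at 3 months and was 52.5, 72.5 and 77.3 at 28 months.

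Elovl6 (chr3:129532355-129638495, plus strand), the elongase that makes stearate from palmitate, moved the other way. It fell in 9 regions and its slope was negative in all 15, with a mean of -0.0081 log2 units per month. The steepest called slope was in thalamus, at -0.012 (SE 0.0026, adjusted p = 0.00210). There Elovl6 ran from 85.5 through 94.9 to 129 CPM at 3 months and was 76.4, 79.2 and 86.1 CPM at 28 months, which overlap. In cerebellum Elovl6 ran from 96.0 through 108 to 118 CPM at 3 months and was 88.0, 88.3 and 90.8 at 28 months, with no overlap, at -0.0094 (SE 0.0018). With males alone Elovl6 passed in 5 regions in place of 9.

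Scd1 (chr19:44394455-44407879, minus strand) and Scd2 (chr19:44293674-44306864, plus strand), neighbours on the chromosome, both rose in choroid plexus and corpus callosum. In choroid plexus 5 of the 31 members were called in either direction, where 1630 of all 14648 genes rose and 1322 fell. In corpus callosum 4 of the 31 were called, where 17.8% of all genes were. In corpus callosum Scd1 ran from 70.5 through 97.5 to 111 CPM at 3 months and was 125, 133 and 139 CPM at 28 months, with no overlap, at a slope of 0.013 (SE 0.0030). Scd2 there ran from 445 through 510 to 612 CPM and was 571, 669 and 759, at 0.012 (SE 0.0030). In motor cortex the slopes were 0.0013 for Scd1 and 0.0029 for Scd2, and neither passed. In choroid plexus the slopes were 0.022 (SE 0.0064) for Scd1 and 0.015 (SE 0.0048) for Scd2. Scd2 also passed in anterior hippocampus, at 0.012 (SE 0.0037).

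Glial markers moved with these slopes. In corpus callosum 3 of 10 oligodendrocyte, 4 of 6 astrocyte and 4 of 5 microglia markers rose with age, and in choroid plexus 5 of 10 oligodendrocyte markers did. The summed marker level of oligodendrocytes in choroid plexus ran from 5377 through 10275 to 26420 CPM at 3 months and from 12871 through 17482 to 18106 CPM at 28 months. In anterior hippocampus 5 of 6 choroid plexus markers and 3 of 10 oligodendrocyte markers rose. With the oligodendrocyte covariate Scd2 passed in 2 regions in place of 4, and neither desaturase rose in choroid plexus, nor did they with males alone. Without mouse 37 or without mouse 57, Scd2 also passed in 2 regions. Without the mice of 12, 26 and 28 months, Scd2 passed in none and neither desaturase rose in corpus callosum.

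**Figure D4:**
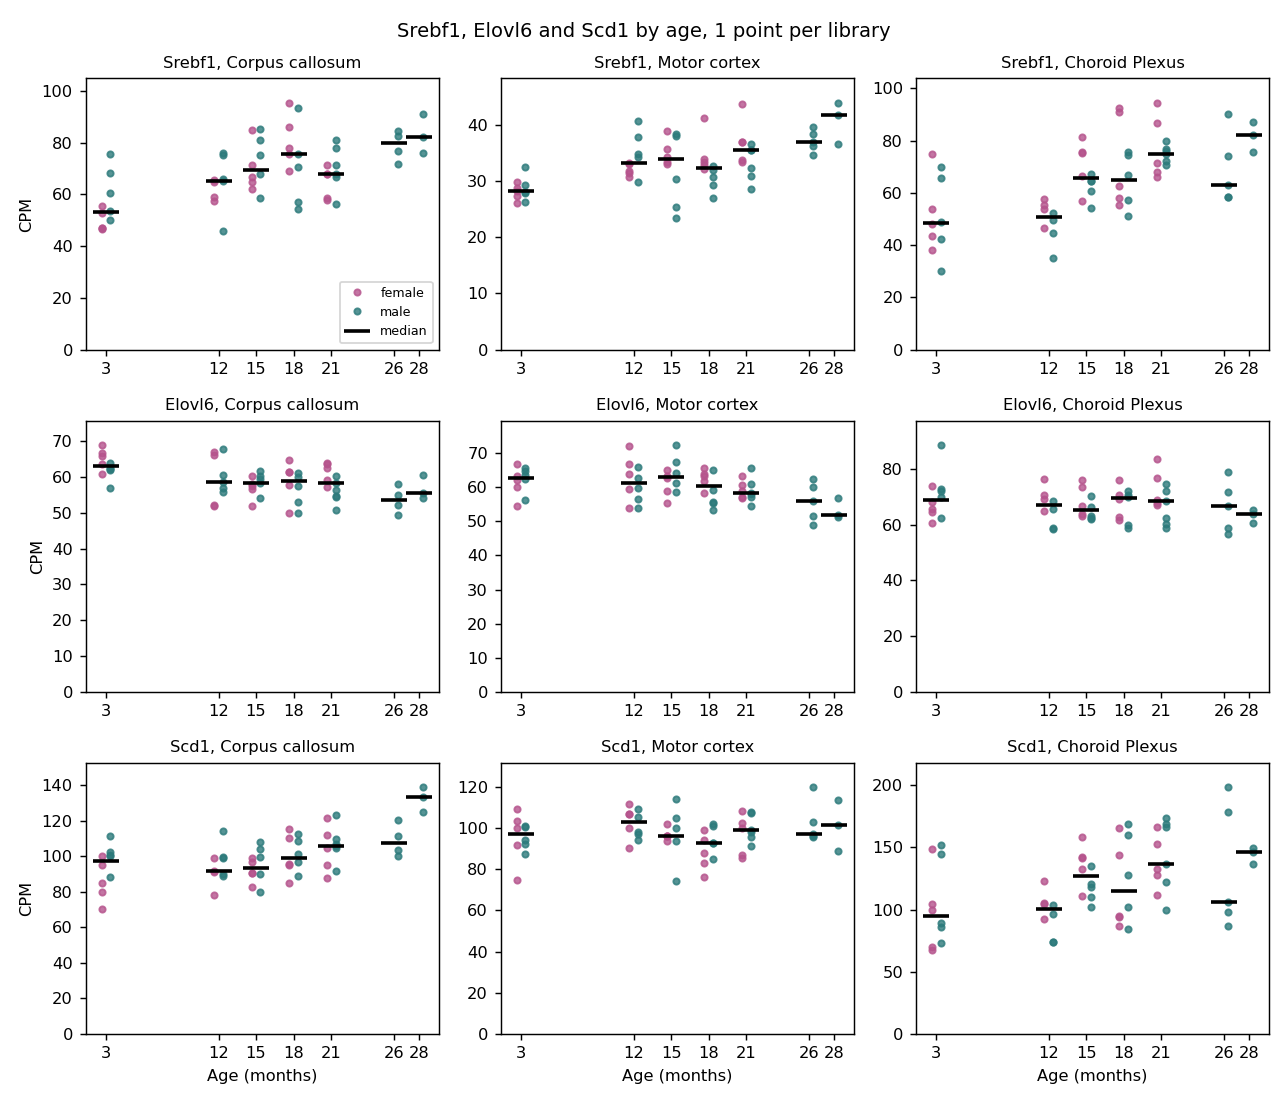
Level in CPM (vertical axis, from 0) against age in months (horizontal axis) for Srebf1, Elovl6 and Scd1 in corpus callosum, motor cortex and choroid plexus, with 1 point per library, coloured by sex, and a bar at the median of each age. The 3 mice of 28 months lie above every 3-month mouse for Srebf1 in all 3 panels, and for Scd1 in corpus callosum alone.

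In medulla, where 10.3% of all genes were called and 6.48% without the 13 libraries that stood apart, the rises of Scd1 and Scd2 were not seen without those libraries. With all libraries the slope of Scd2 was 0.032 (SE 0.010, adjusted p = 0.0318) and that of Scd1 0.012 (SE 0.0039, adjusted p = 0.0482). Without the 13 they were 0.0066 (adjusted p = 0.286) and 0.0053 (adjusted p = 0.541). The slopes of Srebf1, at 0.020 and then 0.017, Elovl6, at -0.011 both times, Cyp51 and Idi1 passed either way by edgeR's test. The medulla slope of Idi1 did not pass in 12 of 24 alternatives.

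The other fatty acid genes moved in few regions. Acly rose in olfactory bulb at 0.012 (SE 0.0016, adjusted p = 1.20e-07 by edgeR), from 175 through 193 to 224 CPM at 3 months to 219, 228 and 246 at 28 months, which overlap. Fads1 and Fads2, the desaturases of polyunsaturated chains, both fell in olfactory bulb and cerebellum. In olfactory bulb 1188 of all 14315 genes fell, and in cerebellum 7.52% of all genes did. In cerebellum Fads2 did not pass in 5 of 23 alternatives, among them those without mouse 37 or mouse 59, and its adjusted p reached 0.350 with males alone. Fads2 in olfactory bulb ran from 198 through 229 to 243 CPM at 3 months and was 164, 179 and 191 CPM at 28 months, with no overlap, at -0.011 (SE 0.0020).

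The sterol enzymes went in opposite directions in different regions. In motor cortex 7 of 18 rose and none fell, where 16.6% of all genes were called, 8% rising. In visual cortex 7 rose and none fell, with 5.13% of all genes rising, and in olfactory bulb 4 rose and none fell, with 7.31% rising. In subventricular zone, the lining of the lateral ventricle where new neurons arise, 6 fell and none rose, with 3.27% of all genes falling, and 17 of 18 slopes were negative. In cerebellum 6 fell and none rose, with 7.52% falling. Caudate putamen had 3 falling, with 6.11% falling, and 1 rising. Corpus callosum had none in either direction by edgeR, where 17.8% of all genes were called, and 14 of 18 slopes there were negative. These counts moved with single mice: in visual cortex 3 rose without mouse 17 and 4 without mouse 59, and in caudate putamen 7 fell without mouse 2. Without the mice of 12, 26 and 28 months, 4 rose in motor cortex and 2 in visual cortex, and with males alone 2 fell in cerebellum and 3 rose in visual cortex.

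Idi1, Cyp51 and Hmgcs1 fell in the most regions among the sterol enzymes. Idi1, the isomerase of the 5-carbon isoprenoids, fell in 5 regions. In caudate putamen it ran from 12.1 through 13.6 to 18.4 CPM in 9 mice of 3 months and was 9.08, 10.4 and 10.4 CPM at 28 months, with no overlap, at -0.018 (SE 0.0046, adjusted p = 0.00440). In motor cortex Idi1 had a slope of -0.00035 and did not pass. Idi1 shares 17.7% of its exonic 50-base stretches with other loci, Gm13502 among them, and passed in 3 regions without mouse 52 and in 1 with males alone. Hmgcs1 fell in cerebellum, caudate putamen and subventricular zone. In cerebellum Hmgcs1 ran from 136 through 168 to 184 CPM at 3 months and was 121, 142 and 145 at 28 months, which overlap, at -0.013 (SE 0.0027). In subventricular zone it ran from 202 through 241 to 300 CPM and was 194, 197 and 199, with no overlap, at -0.015 (SE 0.0036). Cyp51, the lanosterol demethylase, fell in caudate putamen, subventricular zone, pons and medulla. In subventricular zone Cyp51 ran from 56.7 through 67.5 to 74.5 CPM at 3 months and was 51.3, 56.6 and 59.3 at 28 months, which overlap, at -0.012 (SE 0.0030).

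The squalene and lanosterol synthesis enzymes Fdft1, Sqle and Lss rose in motor and visual cortex, and so did Acat2, Fdps and Nsdhl. Fdft1, the squalene synthase, ran in motor cortex from 166 through 187 to 198 CPM at 3 months and was 212, 234 and 250 at 28 months, with no overlap, at 0.0092 (SE 0.0019, adjusted p = 0.000237). It also rose in visual cortex at 0.011 and in olfactory bulb at 0.0085, and it fell in subventricular zone at -0.011 (SE 0.0032). On the opposite strand, 18.3% of its exonic bases overlap Ctsb, which an unstranded library cannot separate. Sqle rose in motor and visual cortex, at 0.0075 and 0.010, and fell in subventricular zone and cerebellum, at -0.013 and -0.011. In motor cortex Sqle ran from 82.1 through 94.2 to 100 CPM at 3 months and was 111, 112 and 120 at 28 months, with no overlap. Without mouse 17, Sqle rose in 1 region and fell in 1. Lss was positive in all 15 regions and rose in 4 of them, motor cortex, visual cortex, olfactory bulb and choroid plexus, or 2 without the mice of 12, 26 and 28 months. The choroid plexus rise of Lss did not pass in 8 of 23 alternatives. In visual cortex Lss ran from 25.2 through 31.1 to 37.6 CPM at 3 months and was 40.6, 42.6 and 48.6 at 28 months, with no overlap, at 0.013 (SE 0.0028). Nsdhl and Acat2 rose in 3 regions each, and Pmvk and Tm7sf2 in 1. The visual cortex rise of Nsdhl did not pass in 10 of 23 alternatives. Fdps, the farnesyl diphosphate synthase, rose in 2 regions, and in 1 without mouse 17, 37, 57 or 59. It shares 26.2% of its exonic 50-base stretches with other loci, Gm43738 among them. Ebp, Hsd17b7 and Dhcr7 fell in 1 region each, and Msmo1 rose in olfactory bulb and fell in cerebellum. Ebp in cerebellum ran from 41.8 through 47.5 to 60.2 CPM at 3 months and was 39.2, 42.6 and 43.9 at 28 months, which overlap, at -0.012 (SE 0.0022).

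**Figure D5:**
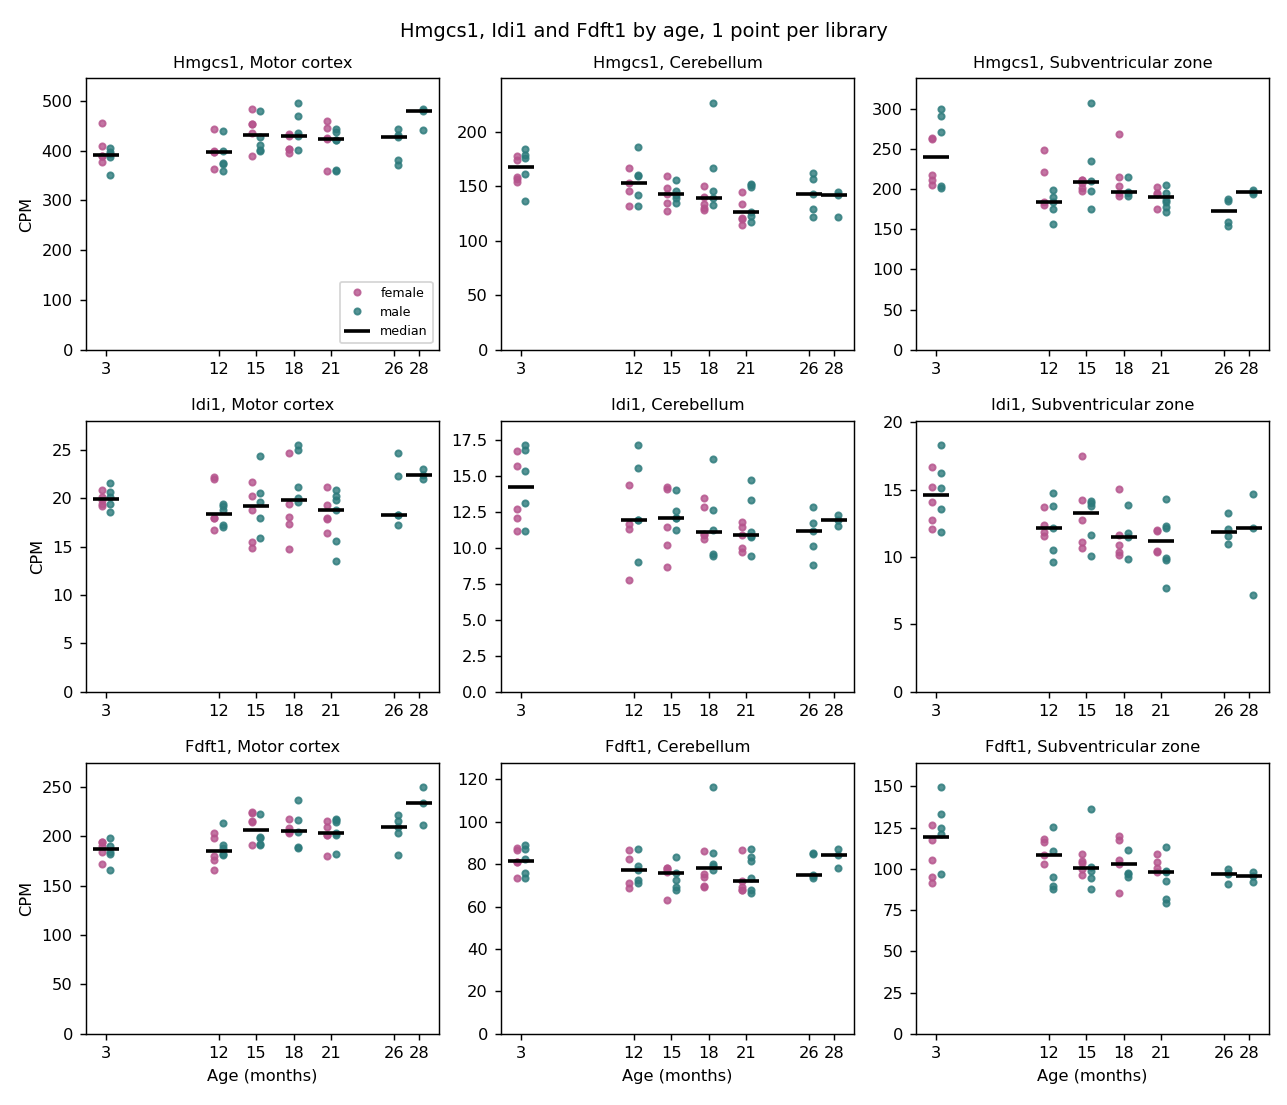
Level in CPM (vertical axis, from 0) against age in months (horizontal axis) for Hmgcs1, Idi1 and Fdft1 in motor cortex, cerebellum and subventricular zone, with 1 point per library, coloured by sex, and a bar at the median of each age. Fdft1 at 28 months lies above all 3-month mice in motor cortex, and Hmgcs1 at 28 months lies below all 3-month mice in subventricular zone.

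Of the sterol sensor and its partners, Insig1 rose in motor cortex, visual cortex, olfactory bulb and choroid plexus, and in 2 regions without the mice of 12, 26 and 28 months. In motor cortex Insig1 ran from 54.3 through 63.1 to 81.4 CPM at 3 months and was 91.1, 91.2 and 101 at 28 months, with no overlap, at 0.013 (SE 0.0029). Stard4 rose in motor and visual cortex, at 0.0094 and 0.013, and fell in subventricular zone at -0.018 (SE 0.0052). Srebf2 rose in anterior hippocampus, motor cortex and olfactory bulb, and Insig2 fell in motor cortex and subventricular zone. The motor cortex fall of Insig2 did not pass without any 1 of 10 of the 15 mice left out in turn.

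In motor cortex no microglia, oligodendrocyte or endothelial marker rose with age, and 1 of 5 microglia and 2 of 6 astrocyte markers fell. The summed marker levels there at 3 and 28 months had medians of 332 and 324 CPM for microglia, 4386 and 5664 CPM for oligodendrocytes and 10658 and 10716 CPM for neurons. In visual cortex 5 of 5 blood markers rose and the same numbers of microglia and astrocyte markers fell. In subventricular zone 5 of 5 microglia markers rose and 1 of 4 markers of committed precursors of oligodendrocytes fell, and their sum had a median of 115 CPM at 3 months and 99.1 CPM at 28 months. In cerebellum 4 of 5 microglia markers rose and 2 of 10 oligodendrocyte markers fell. Their part in the sterol results was not tested further.

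A difference in slope between white and grey matter was not detected for any member. In a joint fit of corpus callosum and motor cortex, none of the 31 members passed in the age by region term, where 2.92% of all genes did, and 6 had an unadjusted p under 0.05. DESeq2 called 1. The slope differences, corpus callosum minus motor cortex, were negative for 17 of 18 sterol enzymes, with a median of -0.0068 per month against -0.00024 for all genes, and positive for 6 of 7 fatty acid genes. The nearest to the threshold were Srebf2 at -0.0077 (adjusted p = 0.0604) and Scd1 at 0.012 (adjusted p = 0.0609).

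Set against 3 months, later ages held few called pairs up to 15 months. By edgeR 2 of 465 pairs were higher and 14 lower at 12 months, 6 and 5 at 15 months, and 15 and 7 at 18 months, with 1.35%, 1.11% and 2.46% of all pairs called. At 21 months 17 were higher and 29 lower, with 6.18% of all pairs called. Of the 29, 20 were sterol enzymes, which make up 270 of the 465 pairs. Cerebellum, where 10.1% of all genes were called, held 9 of the 29 lower pairs. There Hmgcs1 ran from 114 through 126 to 152 CPM at 21 months, below its 3-month median of 168, a difference of -0.33 log2 units (SE 0.065, adjusted p = 0.000316). At 26 months 15 were higher and 10 lower, with 3.7% of all pairs called. All ages share the 3-month libraries. The mice of 12 and 26 months were those numbered 1 to 15, and no mouse of 3 months was among them. In these contrasts, 12 and 26 months cannot be told apart from that block of mouse numbers.

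At 28 months 42 pairs were higher and 13 lower, with 5.77% of all pairs called. Motor cortex, where 11.1% of all genes were called, held 13 of the higher pairs. Of those, 9 were sterol enzymes, which are 18 of the 31 members. The largest there were Srebf1 at 0.53 log2 units (SE 0.088), Insig1 at 0.50 (SE 0.095), Acat2 at 0.38 (SE 0.065), Lss at 0.37 (SE 0.087), Stard4 at 0.36 (SE 0.089) and Fdft1 at 0.31 (SE 0.061). Elovl6 and Insig2 were the 2 lower ones. The 3 mice were close to each other in motor cortex, where Hmgcs1 was 480, 484 and 441 CPM in mice 57, 58 and 59 and Sqle 112, 120 and 111. They were not in thalamus, where Hmgcs1 was 534, 531 and 361 CPM and Sqle 194, 167 and 101. Medulla, where the oldest mice were all in libraries that stood apart, held 5 higher and 7 lower pairs with 25% of all genes called, and the other 14 regions 37 and 6. Without mouse 57, 58 or 59 the called pairs fell from 55 to 30, 29 or 33. Age at 28 months likewise cannot be told apart from the mice numbered 57 to 59.

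Sex differences in level, at the ages both sexes have, were called for 14 of 465 pairs by edgeR, where 2.71% of all pairs were called, and 9 of the 14 were in medulla, where 22.5% of all genes were called. Scd2 in medulla ran from 530 through 710 to 2077 CPM in 24 females and from 449 through 583 to 737 in 26 males. The difference, males minus females, was -0.77 log2 units (SE 0.14, adjusted p = 0.000142), and -0.12 (adjusted p = 0.382) without the libraries that stood apart. None of the 9 passed without them, and 0.321% of all genes then did. The other 5 were Ebp in posterior hippocampus at -0.14 (SE 0.040), Fads1 at -0.12 (SE 0.028) and Insig2 at 0.097 (SE 0.025) in hypothalamus, and Scd2 at -0.11 (SE 0.029) and Fasn at -0.12 (SE 0.028) in olfactory bulb. In those regions 4.21%, 4.95% and 1.61% of all genes were called. The summed oligodendrocyte markers had medians of 5654 CPM in females and 4425 in males in posterior hippocampus, 7899 and 6074 in hypothalamus and 3680 and 3850 in olfactory bulb, and their part in these differences was not tested. No pair passed for a difference in slope between the sexes by edgeR. Of all pairs 0.0727% were called, and 23 of the 465 had an unadjusted p under 0.05. At 12 months both sexes were numbered within 1 to 15. At the other ages compared, males were numbered 16 to 36 and females 37 to 56. Sex cannot be told apart from mouse number at those ages.

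Within a region, sterol enzymes varied together between mice after age and sex were taken out. The median correlation over pairs of sterol enzymes was 0.50 in 57 corpus callosum libraries, 0.43 in thalamus and 0.41 in medulla, or 0.44 in its 45 other libraries, and 0.11 in olfactory bulb and 0.12 in pons, against 0.022 over pairs of all genes in corpus callosum. In corpus callosum Insig1 had a median correlation of 0.64 with the sterol enzymes and Stard4 0.61. Over pairs of fatty acid genes the median ran from -0.10 in thalamus to 0.61 in entorhinal cortex, with -0.047 in corpus callosum. The fatty acid branch had its highest median correlation with Srebf1 in choroid plexus, at 0.65, where Srebf1 had -0.44 with the sterol enzymes. Entorhinal cortex and pons were close, both at 0.62. Corpus callosum had 0.041, motor cortex 0.12 and thalamus -0.062. Scd1 and Scd2 had r = 0.92 in 58 caudate putamen libraries and 0.87 in choroid plexus. The points of a correlation share the region's dissection and depth range, and these values are descriptions.

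Other genes of both pathways were followed from lists of 19 sterol and 27 fatty acid genes. Of the sterol list, 28 of 281 pairs (9.96%) rose and 10 (3.56%) fell, where 5.87% of all pairs rose and 4.71% fell. Abca1, which exports cholesterol, rose in 8 regions with a mean slope of 0.016. Cyp46a1, which hydroxylates cholesterol in neurons for export, fell in 4. Of the fatty acid list, 28 of 391 pairs (7.16%) rose and 25 (6.39%) fell, near the same 5.87% and 4.71%. Hacd1, a dehydratase of chain elongation, fell in 9 regions with a mean of -0.013, Hacd3 fell in 6 with a mean of -0.0035, and Mlxipl, the glucose-sensing factor ChREBP, rose in 5 with a mean of 0.017.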

How the data were processed

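Each library is bulk RNA from 1 dissected region of 1 mouse. Per the labels' protocols, RNeasy kits gave the RNA, Smart-Seq2 the cDNA and Nextera XT the libraries, without strand. The deposited values are whole read counts per gene and library. The submitters' processing notes name GRCm38, Trim Galore 0.3.7, STAR 2.5.3a and DESeq2, and the counting program and annotation are not given in the sources used here. The libraries carry no molecular identifiers, so depth limits precision beyond counting error.

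Genes were tested region by region with edgeR 4.0.16 (quasi-likelihood test, R 4.3.3) on age in months and sex, after filterByExpr and TMM scaling. Benjamini-Hochberg adjustment ran over all genes tested in a region and contrast, and the threshold was 0.05. Further fits took age as a factor against 3 months, sex at 3 to 21 months, and corpus callosum against grey regions with an age by region term. All tests are two-sided. CPM use TMM library sizes, and log2 values a prior count of 2. Copies were counted as shared 50-base stretches of GENCODE M21 exons. Python 3.11.15, numpy 2.4.6, pandas 2.3.3 and matplotlib 3.10.9 did the rest.

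Mice are the replicates, numbered in the labels, and the same number is the same animal in every region. Corpus callosum deviations correlated with the same mouse's at a median r of 0.059 in motor cortex (57 mice), 0.22 in caudate putamen (56) and 0.021 in visual cortex (54), against -0.0029, 0.0018 and -0.00025 with other mice.

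On simulated counts the fit recovered 25% of slopes of 0.01 and 81% of slopes of 0.02 log2 units per month among 13071 genes in corpus callosum, with 2 false calls of 108. For corpus callosum against motor cortex it recovered 81% of changes of 0.25 and 93% of changes of 0.5 among 13557 genes, with 5 false calls of 179. There the spread of each gene was estimated over both regions together, so differences between the regions entered it. Libraries were drawn independently of the mouse, so these figures describe the simulated setting.

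Members and lists were chosen with earlier results of these data known. Full values are given for the 9 members called in at least 4 regions, since those called in 3 tie for the tenth place, and for the 5 with the largest difference in each direction between corpus callosum and motor cortex. Of the other pathway genes, the 3 called in the most regions of each list are named, ties going to the larger mean slope, except 1 that is not reported here. Other members are named with values chosen after they were seen. The alternatives were DESeq2 1.42.0, RLE factors, no filter, leaving out 13 doubtful libraries, males alone, mice 16 to 56, depth covariates, an oligodendrocyte covariate, a mouse block and leaving out each of 15 mice. Medulla without the libraries that stood apart was added after seeing the data.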

Additional observations from a re-analysis of the deposited data

Results flagged for a closer look

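Among 40 groups of 1 gene, region and age that were tested for a single distant library, 3 held one, and chance gives about 1 in 20. In motor cortex at 18 months, Srebf1 was 41.3 CPM in mouse 55 and 34.0 CPM in the next highest of 10 mice. In motor cortex at 15 months, Scd1 was 74.2 CPM in mouse 22 and 93.9 CPM in the next lowest. In corpus callosum at 18 months, Scd2 was 352 CPM in mouse 43 and 514 CPM in the next lowest.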

How the results depend on the processing

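Of 84 called slopes, 83 kept their side of the threshold under DESeq2 and under RLE factors, 84 without the doubtful libraries, 79 with no filter, 78 with the oligodendrocyte covariate, 75 with depth covariates, 52 in mice 16 to 56 and 49 in males alone, and none reversed. Falling pairs numbered 35 and were 16 in males alone. Rising pairs numbered 49 and were 27 in mice 16 to 56. The cause was not tested, and both settings fit fewer mice. The age by region term called 0 members, and 1 under DESeq2, RLE factors, no filter and the oligodendrocyte covariate. In males alone the pairs called against 3 months were 2 at 12 months, 0 at 15, 6 at 18 and 14 at 21. Sex pairs in level were 14, and 5 without the medulla libraries that stood apart. Members higher in corpus callosum than in motor cortex were 10, and 5 with the oligodendrocyte covariate, where Acat2 was -0.13, Dhcr7 -0.30, Ebp -0.33 and Lss -0.23. That fit extrapolates, since the summed markers of these regions did not overlap.

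Leaving out each of 15 mice gave 31 to 37 falling pairs, 40 to 53 rising pairs and 0 to 1 members in the age by region term. It gave 14 to 18 pairs at 12 months, 8 to 12 at 15, 15 to 23 at 18, 40 to 51 at 21, 23 to 30 at 26 and 29 to 57 at 28 months. Of the 84 called slopes it lost at most 12, without mouse 17, then 10 without mouse 58 and 9 without mouse 37 or 57. It gave 12 to 17 sex pairs in level, 0 in slope, and 10 to 11 members higher and 15 lower in corpus callosum. The age by region term held 1 member without mouse 1, 2, 16, 17, 18, 19, 38, 40 or 52.

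With the mouse as a block, which pairs libraries of the same animal, 10 members were higher and 15 lower against motor cortex, 28 and 3 against caudate putamen and 15 and 10 against visual cortex, and the age by region term called 0. All 80 called differences kept their call, and 1 more member was lower than visual cortex. The 28-month contrast in medulla could not be fitted without the libraries that stood apart. The simulated slopes of 0.01 recovered at 25% limit what the 57 corpus callosum libraries can show. Slopes in the other regions were not simulated.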

Other observations

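The medulla libraries that stood apart were compared by mouse number, a check chosen after seeing the data. Among females of 3, 15, 18 and 21 months, mice 46 to 56 were set against mice 37 to 45 with age in the edgeR model. Mouse 46 was the lowest number among the medulla libraries that stood apart. The groups were thus cut from the medulla data, so a large share in medulla follows from that cut and is no separate test. In medulla, with 20 libraries, 33.6% of 14118 genes passed, and 6 members were higher and 8 lower in the higher numbers, Scd2 and Insig2 among them. In the other 14 regions between 0% and 0.281% of genes passed by edgeR and no member did. The labels give no batch for these mice, and the cause was not tested.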
